A study of Homo sapiens with 6 samples.

Results

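The introns of 8 very long genes at common fragile sites are described here: FHIT, WWOX, IMMP2L, MACROD2, LRP1B, DMD, NBEA and RORA. Their members are intronic clusters, short places covered by sequenced RNA, whose gene field equals 1 of these names after repeated rows were dropped. There were 1343 such clusters of 188027 in the Rbfox1 F125A list (0.714%) and 3079 of 366429 in the Rbfox1 WT list (0.84%), in 8 of the 11805 genes that the lists name singly. RNA that stayed protected from nuclease had been isolated with FLAG-tagged Rbfox1 and the LASR proteins bound to it. There were 2 libraries of Rbfox1 F125A, 3 of Rbfox1 WT and 1 of cells without a transgene, which was not analysed here. The cells of all groups were HEK293 Flp-In Rbfox2 KO#7, that is, 1 line of human embryonic kidney origin that lacks Rbfox2 and accepts a transgene at a fixed genomic site. Each Rbfox1 group is represented by 1 cluster list for all its libraries, with places on hg38 and neither read counts nor scores. No value therefore has a replicate error, no test between the conditions could be made, read depth is unknown, and all 95% intervals cover counting error only.

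Common fragile sites are stretches of chromosome that break when replication is slowed, and many lie inside very long genes with enormous introns. FHIT encodes a diadenosine triphosphate hydrolase and lies at FRA3B, and WWOX encodes an oxidoreductase with WW domains and lies at FRA16D. Both are regarded as tumour suppressors. IMMP2L encodes a subunit of a mitochondrial inner membrane peptidase, MACROD2 an enzyme that removes ADP-ribose from proteins, and LRP1B a large endocytic receptor. DMD encodes dystrophin, which links actin to the membrane of muscle fibres, NBEA encodes neurobeachin, a scaffold of vesicle traffic in neurons, and RORA a nuclear receptor. Rbfox proteins are splicing regulators whose RNA recognition motif reads GCAUG in introns. F125A replaces a phenylalanine of that domain, while LASR holds other RNA-binding proteins such as hnRNP M, hnRNP H and Matrin 3.

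The sequence of 7 of the clusters could be read, because they lay wholly inside a promoter window of the RefSeq table (GRCh38.p14, 300 nt around an annotated start, here those of other transcripts inside the host introns). They are shown because they are the only clusters of these genes with a sequence at hand, and all 7 were WT clusters that overlapped no F125A cluster. They are given as reference sequence of the strand with the same sense as the RNA, 5′ to 3′, with the pentamer bound by Rbfox (GCATG as DNA) in capitals.
WWOX, chr16:78500095-78500141, plus strand: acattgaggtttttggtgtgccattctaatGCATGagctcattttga
WWOX, chr16:78500143-78500173, plus strand: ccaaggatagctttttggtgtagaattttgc
WWOX, chr16:78500184-78500245, plus strand: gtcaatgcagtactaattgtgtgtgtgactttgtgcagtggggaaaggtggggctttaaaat
WWOX, chr16:78796561-78796614, plus strand: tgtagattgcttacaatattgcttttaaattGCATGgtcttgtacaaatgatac
WWOX, chr16:79089859-79089907, plus strand: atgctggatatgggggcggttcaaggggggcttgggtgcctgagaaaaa
IMMP2L, chr7:111090904-111090958, minus strand: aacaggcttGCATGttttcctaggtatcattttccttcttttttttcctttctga
RORA, chr15:61135573-61135638, minus strand: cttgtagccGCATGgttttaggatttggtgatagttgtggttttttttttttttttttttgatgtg

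The pentamer was present in 4 of these 7 WT clusters, 2 of the 5 in WWOX and the readable cluster of IMMP2L and of RORA. In 3 of the 4 it was part of the longer TGCATG. It began at base 10 of the IMMP2L and RORA clusters, and at bases 31 and 32 of the WWOX clusters. The first 3 WWOX clusters follow each other within 151 nt, 400.5 kb from the gene start and inside the promoter window of the antisense RNA WWOX-AS2. With a neighbour that runs past the window's edge, no F125A cluster and 4 WT clusters touched that window, whereas 7 F125A and 16 WT clusters lay within 5 kb of it. The RORA cluster also holds a long run of T, and the IMMP2L cluster a T-rich 3′ part.

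Among the readable clusters of all genes, the pentamer was common in WT clusters with no F125A partner and rare in the rest. Readable were only 871 of the 188027 F125A and 1016 of the 366429 WT clusters, those wholly inside promoter windows. They need not stand for the other intronic clusters, whose sequence was not read. Of readable F125A clusters, 29 of 712 with a WT partner held it (4.07%, exact 95% interval 2.74 to 5.80%), and 4 of 159 without one (2.52%, 0.69 to 6.32%). Of readable WT clusters, 89 of 286 without an F125A partner held it (31.1%, 25.8 to 36.8%), against 33 of 730 with a partner (4.52%, 3.13 to 6.29%). Without the 7 clusters shown above the share was 85 of 279 (30.5%). For comparison, 3.71% of all stretches of 54 nt in the promoter windows (the median length of the 7 clusters), both strands, held the pentamer. WT clusters without a partner were less rich in G and C (50.9%) than those with one (64.6%). Among clusters under 50% G and C, a split chosen after seeing the data, the pentamer was in 48 of 130 without a partner (36.9%) and 6 of 95 with one (6.32%). No F125A cluster of the 8 genes and no WT cluster with a partner could be read, so the comparison could not be made within these genes, and a match of letters does not show binding.

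**Figure D1:**
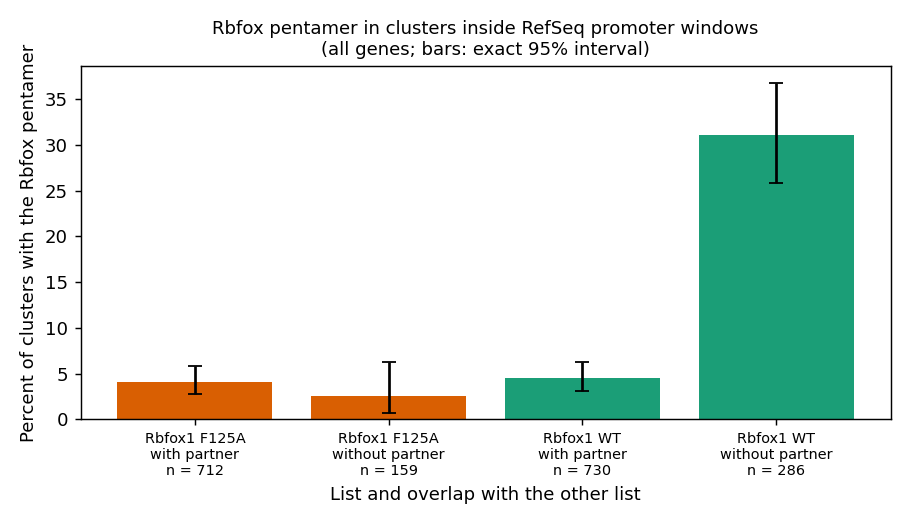
Percent of readable clusters of all genes that hold the Rbfox pentamer, by list and by overlap with the other list, with exact 95% intervals. Readable clusters are those wholly inside RefSeq promoter windows, 871 F125A and 1016 WT. The WT clusters without a partner stand at 31.1%, and the other 3 classes between 2.52% and 4.52%.

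The 8 genes fell into a densely covered and a sparsely covered set, a division made after seeing the values. IMMP2L (chr7:110662644-111562492, 900 kb) had 367 F125A and 684 WT clusters, WWOX (chr16:78099654-79212667, 1113 kb) 299 and 710, FHIT (chr3:59747277-61251452, 1504 kb) 341 and 710, and RORA (chr15:60488284-61229302, 741 kb) 197 and 460. These 4 thus carried 1204 of the 1343 F125A and 2564 of the 3079 WT clusters. The other 4 genes had fewer clusters for their size than these 4. LRP1B (chr2:140231423-142131016, 1900 kb) had 49 F125A and 210 WT clusters, MACROD2 (chr20:13995516-16053197, 2058 kb) 47 and 162, and NBEA (chr13:34942270-35672736, 730 kb) 32 and 122. DMD (chrX:31119222-33339388, 2220 kb), the longest of the 8, had the fewest, with 11 and 21. Length alone did not order these genes, since NBEA and RORA are of like length and differed 6.07-fold in F125A and 3.72-fold in WT clusters per Mb.

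Per Mb of gene, the order of the 8 genes was the same in both lists. IMMP2L was highest, with 408 F125A clusters per Mb (exact Poisson interval 367 to 452) and 760 WT clusters per Mb (704 to 819). WWOX had 269 F125A clusters per Mb (239 to 301) and 638 WT clusters per Mb (592 to 687). RORA, with 266 F125A (230 to 306) and 621 WT (565 to 680), could not be told from WWOX. FHIT had 227 F125A clusters per Mb (203 to 252), an interval that overlaps those of WWOX and RORA, and 472 WT clusters per Mb (438 to 508), which lies below both. NBEA had 43.8 F125A (30.0 to 61.8) and 167 WT (139 to 199) clusters per Mb. LRP1B had 25.8 F125A (19.1 to 34.1) and 111 WT (96.1 to 127), and MACROD2 22.8 F125A (16.8 to 30.4) and 78.7 WT (67.1 to 91.8). The F125A intervals of NBEA, LRP1B and MACROD2 overlap from neighbour to neighbour, and their WT intervals do not. DMD had 4.95 F125A (2.47 to 8.87) and 9.46 WT (5.86 to 14.5) clusters per Mb. The lists are not scaled to the amount of transcript, so more pre-mRNA and more protected RNA per molecule cannot be told apart.

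**Figure D2:**
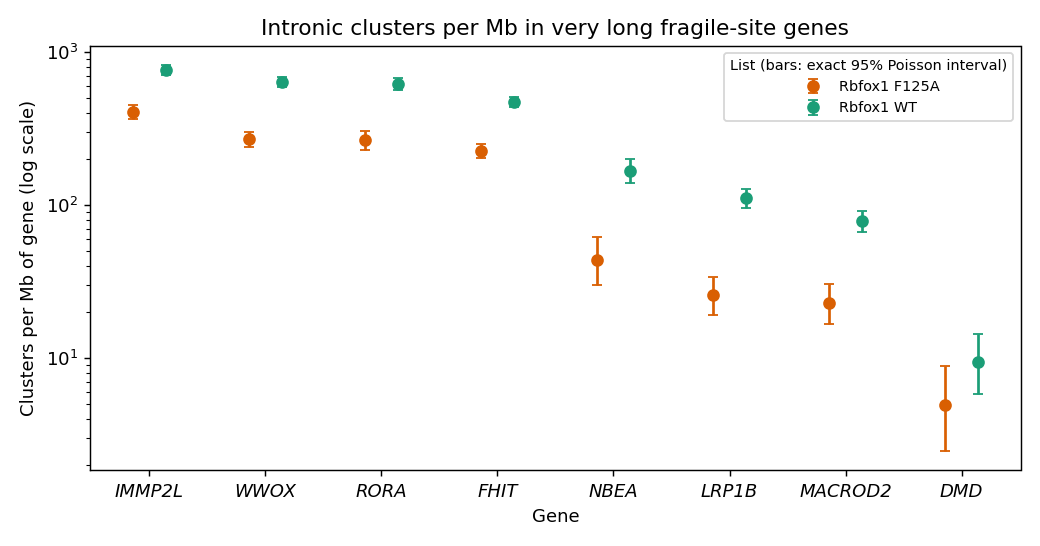
Clusters per Mb of gene on a log axis for Rbfox1 F125A and Rbfox1 WT, with exact 95% Poisson intervals. The genes are ordered by WT density, from IMMP2L (760 per Mb) to DMD (9.46 per Mb), and a wide step separates FHIT (472) from NBEA (167).

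Among genes of this size with 20 or more clusters, the dense members rank high and the sparse ones in the middle or low. RefSeq lists 146 other protein-coding genes at least as long as NBEA, the shortest member, and 77 of them reached 20 clusters in the lists combined. Over those 77 the median density was 51.4 F125A and 149 WT clusters per Mb. The rest of the 146 had fewer than 20 clusters and are left out of these medians and of the ranks. Places among all genes of this size are therefore not given. Summed over all 146 genes, there were 48.9 F125A and 117 WT clusters per Mb. Ranked with the 77, the 8 members held F125A places 3 (IMMP2L), 9 (WWOX), 10 (RORA), 15 (FHIT), 49 (NBEA), 56 (LRP1B), 59 (MACROD2) and 80 (DMD) of 85. The gene nearest in length is given for 7 members. For WWOX it was ZFHX3, a homeodomain transcription factor, with 57 and 119. For RORA it was LPP, a focal adhesion protein, with 88 and 221, for NBEA TRAPPC9, a vesicle tethering factor, with 112 and 247, and for IMMP2L NLGN1, a synaptic adhesion protein, with 150 and 397. For LRP1B it was CTNNA3, a catenin, with 20 and 66, and for both MACROD2 and DMD it was DLG2, a synaptic scaffold, with 10 and 49.

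In clusters per Mb over both lists, the nearest genes outside the set, given for 6 members, were all shorter than their member. They were APIP for IMMP2L, NOS1AP for WWOX, ZNF708 for RORA, WDPCP for NBEA, SYT1 for LRP1B and RUNX1 for MACROD2. Likeness was the Euclidean distance of log2 clusters per Mb over the 2 lists among 5618 genes, and these 6 distances were 0.011 to 0.069. WDPCP (721 kb, with 32 F125A and 115 WT clusters) was the only 1 of the 6 of a length close to its member's, while APIP is 34.1 kb long.

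The ratio of F125A to WT clusters separated 3 of the sparse genes from the dense ones. It is given as log2 of F125A clusters + 1 over WT clusters + 1, after subtraction of the same quantity for the list totals (-0.96), so that 0 stands for 1.95 WT clusters per F125A cluster. LRP1B lay at -1.11 (exact binomial interval -1.62 to -0.68), with 4.29 WT clusters per F125A cluster, NBEA at -0.94 (-1.58 to -0.40) and MACROD2 at -0.80 (-1.32 to -0.35). The 4 dense genes were near 0. WWOX lay at -0.28 (-0.48 to -0.09), RORA at -0.26 (-0.51 to -0.02), FHIT at -0.09 (-0.29 to 0.09) and IMMP2L at 0.07 (-0.12 to 0.25). DMD, at 0.09, had an interval of -1.17 to 1.15 that leaves its direction unknown. The intervals of all 3 sparse genes lie below those of FHIT and IMMP2L, and that of LRP1B also below those of WWOX and RORA. These intervals take each cluster as a separate event, which paired clusters of the lists are not.

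LRP1B was the only 1 of the 8 genes at 2-fold or more toward WT, where 2.51% of the 5626 genes with 20 or more clusters lay, and none of the 8 lay at 2-fold or more toward F125A (1.99% of all). With covered nt in place of clusters NBEA, at -1.16, was also past 2-fold toward WT. In 5 of the 8, namely LRP1B, NBEA, MACROD2, WWOX and RORA, the exact interval lay wholly below 0, against 5.85% of all genes, and in none wholly above (4.37%). Long genes in general leaned this way. Among the 77 other genes at least as long, 11 lay at 2-fold or more toward WT and none toward F125A, and 41 had an interval wholly below 0. The median ratio was -0.27 for the 8 members, -0.48 for those 77 genes and 0.04 for all 5626. Relative to the median of genes of similar length, WWOX (0.14), RORA (0.17), FHIT (0.33) and IMMP2L (0.49) lay above 0, and LRP1B (-0.69, then under 2-fold), NBEA (-0.51) and MACROD2 (-0.38) stayed below. All 8 members fall in the longest of 20 length bins, so the same amount was subtracted from each. That bin also holds a gene of 462 kb, so its genes need not be near a given member in length. Across the 85 long genes Spearman's rho between the ratio and WT clusters per Mb was 0.40, a description over genes whose points share both lists and in which the WT count enters both measures. Of the 77 genes, the 22 with 60 to 170 WT clusters per Mb, bounds set after seeing the data, had a median ratio of -0.54 and ranged from -1.32 to 0.18. The 3 sparse members at that density lie inside this range.

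**Figure D3:**
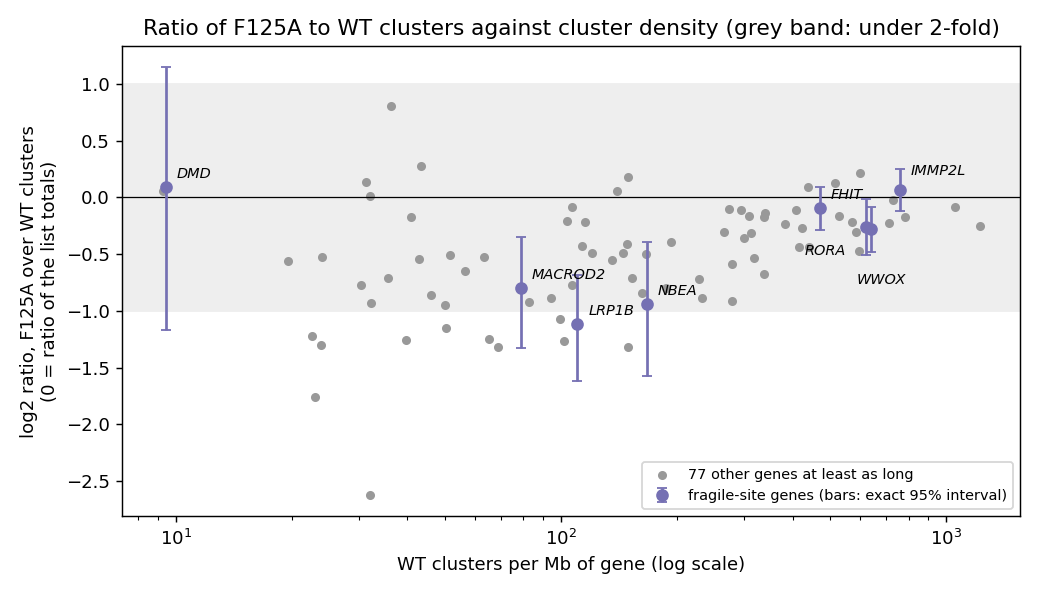
Log2 ratio of F125A to WT clusters against WT clusters per Mb (log axis) for the 8 fragile-site genes, with exact 95% intervals, and for 77 other genes at least as long. LRP1B, NBEA and MACROD2 lie between -1.11 and -0.80, the 4 dense genes between -0.28 and 0.07, and DMD has the widest interval.

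Most F125A clusters of these genes lay on a WT cluster. With an overlap of at least 1 nt on the same strand, 1193 of the 1343 F125A clusters had a WT partner (88.8%, exact interval 87.0 to 90.5%), and 1226 of the 3079 WT clusters had an F125A partner (39.8%, 38.1 to 41.6%). In the 77 other long genes the shares were 89.5% for F125A and 38.7% for WT. Over all genes but the members they were 85.3% and 44.8%. By gene, 95.3% of the F125A clusters of WWOX had a WT partner (92.3 to 97.4%), which left 14 of 299 without one, and 91.9% of those of RORA (87.1 to 95.3%). The shares were lower in IMMP2L, at 86.1% (82.1 to 89.5%), and in FHIT, at 85.6% (81.5 to 89.2%), where 51 and 49 F125A clusters stood alone. The interval of WWOX shares no value with those of IMMP2L and FHIT. MACROD2 (93.6%), LRP1B (83.7%), NBEA (81.2%) and DMD (8 of 11) had wider intervals that overlapped all others.

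The share of WT clusters with an F125A partner was lower in the sparse genes. It was 48.0% in IMMP2L (44.2 to 51.8%), 42.1% in FHIT, 41.0% in WWOX and 40.9% in RORA (36.3 to 45.5%). In LRP1B it was 19.0% (14.0 to 25.0%), which left 170 of 210 WT clusters without a partner, in NBEA 21.3% (14.4 to 29.6%) and in MACROD2 28.4% (21.6 to 36.0%). The intervals of these 3 lie below those of the 4 dense genes, while DMD (8 of 21, 18.1 to 61.6%) overlapped both sets. Where a gene has few F125A clusters, fewer WT clusters can have a partner, so this share is not independent of the ratio above.

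**Figure D4:**
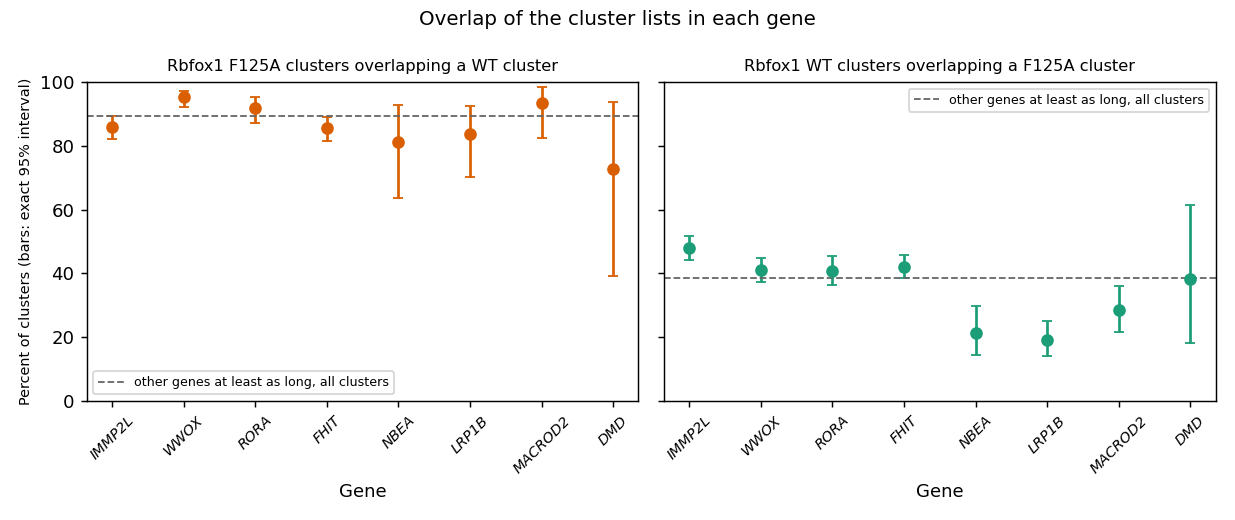
Percent of F125A clusters that overlap a WT cluster (left) and of WT clusters that overlap an F125A cluster (right) in each gene, with exact 95% intervals. The dashed lines mark 77 other long genes (89.5% and 38.7%), and on the right LRP1B, NBEA and MACROD2 lie between 19.0% and 28.4%.

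Clusters were not spread evenly along the genes, and the 2 lists had similar profiles. Each gene was divided into 10 equal bins counted from its annotated 5′ end. In IMMP2L, bin 1 held few clusters (24 F125A and 49 WT), bins 2 and 3 held 189 F125A and 324 WT clusters together, and bin 7 held 3 and 12. Its densest 100 kb carried 34.1% of its F125A and 30.3% of its WT clusters. The densest 10 kb of any of the 8 genes lay there too, with 22 F125A clusters at chr7:111406383-111416186 and 34 WT clusters at chr7:111398560-111408508. In RORA the highest bin was bin 1 for F125A (51 clusters) and bin 2 for WT (106), and bin 8 was the lowest, with 3 F125A and 9 WT clusters. Both lists had their densest 10 kb of RORA within the first 10 kb of the gene, with 14 F125A and 22 WT clusters.

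WWOX and FHIT had their highest bins inside the gene. In WWOX, bin 3 held 6 F125A and 19 WT clusters and bin 4 held 75 and 164, and from there the numbers fell to 5 and 20 in bin 10. Both lists had their longest stretch of WWOX without a cluster just upstream of this step, 67.1 kb in the F125A list (chr16:78365770-78432903) and 31.8 kb in the WT list (chr16:78371492-78403289). In FHIT, the highest bin was bin 6, in the middle of the gene, with 74 F125A and 137 WT clusters, and bins 9 and 10 held 9 F125A and 30 WT clusters together. RefSeq's promoter table gives FHIT an internal start 1171 kb from the 5′ end. Upstream of it lay 329 F125A (96.5%) and 670 WT clusters (94.4%), which is 281 and 572 per Mb, and downstream 36.0 F125A and 120 WT clusters per Mb. The only start that table gives RORA lies 602 kb inside the gene, and the part upstream of it had 287 F125A and 686 WT clusters per Mb, and the part downstream 172 and 338.

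In LRP1B, MACROD2 and NBEA most clusters lay in the 5′ part, as they did in IMMP2L, where the share upstream of the midpoint was 86.9% for F125A (83.0 to 90.2%) and 84.4% for WT (81.4 to 87.0%). Upstream of the midpoint were 47 of 49 F125A clusters of LRP1B (95.9%) and 200 of 210 WT clusters (95.2%), 42 of 47 (89.4%) and 140 of 162 (86.4%) in MACROD2, and 29 of 32 (90.6%) and 99 of 122 (81.1%) in NBEA. LRP1B had a stretch of 866 kb without an F125A cluster, chr2:140563224-141429609, and within it 568 kb without a WT cluster, chr2:140755789-141324090. In MACROD2 the longest such stretches were 784 kb in the F125A list and 311 kb in the WT list, and past them clusters reappeared in bin 9 in the F125A list (5 clusters) and in bin 7 in the WT list (2 clusters, then 7 in bin 8 and 12 in bin 9). Downstream of the internal start of MACROD2, 1201 kb from the 5′ end, were 5 F125A and 22 WT clusters, or 5.84 and 25.7 per Mb, against 35.0 and 117 per Mb upstream of it. In NBEA the densest 100 kb, next to the 5′ end in both lists, held 17 F125A (53.1%) and 58 WT clusters (47.5%). Over all 8 genes the share upstream of the midpoint was 72.1% in the F125A list (69.6 to 74.5%) and 71.1% in the WT list (69.5 to 72.7%), and over the 77 other long genes 67.6% and 64.3%.

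DMD differed from the other 7 in having most clusters at its 3′ end. Bin 10 held 6 of its 11 F125A and 12 of its 21 WT clusters, and bin 1 none in either list. The 6 F125A clusters lay within 54.6 kb, 22.0 to 76.6 kb from the annotated gene end, and the 12 WT clusters 12.1 to 166 kb from it. That makes 27.0 F125A and 54.0 WT clusters per Mb in bin 10, against 2.50 and 4.50 per Mb in the remainder of the gene. Upstream of the midpoint were 4 F125A clusters (36.4%, interval 10.9 to 69.2%) and 4 WT clusters (19.0%, 5.45 to 41.9%), so with these numbers the F125A share is uncertain. As background, a short dystrophin widely made outside muscle is transcribed from a promoter near the 3′ end of DMD. Which transcript the clusters came from was not tested. Of the 5 F125A clusters in bin 10 with a WT partner, none could be read for sequence.

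**Figure D5:**
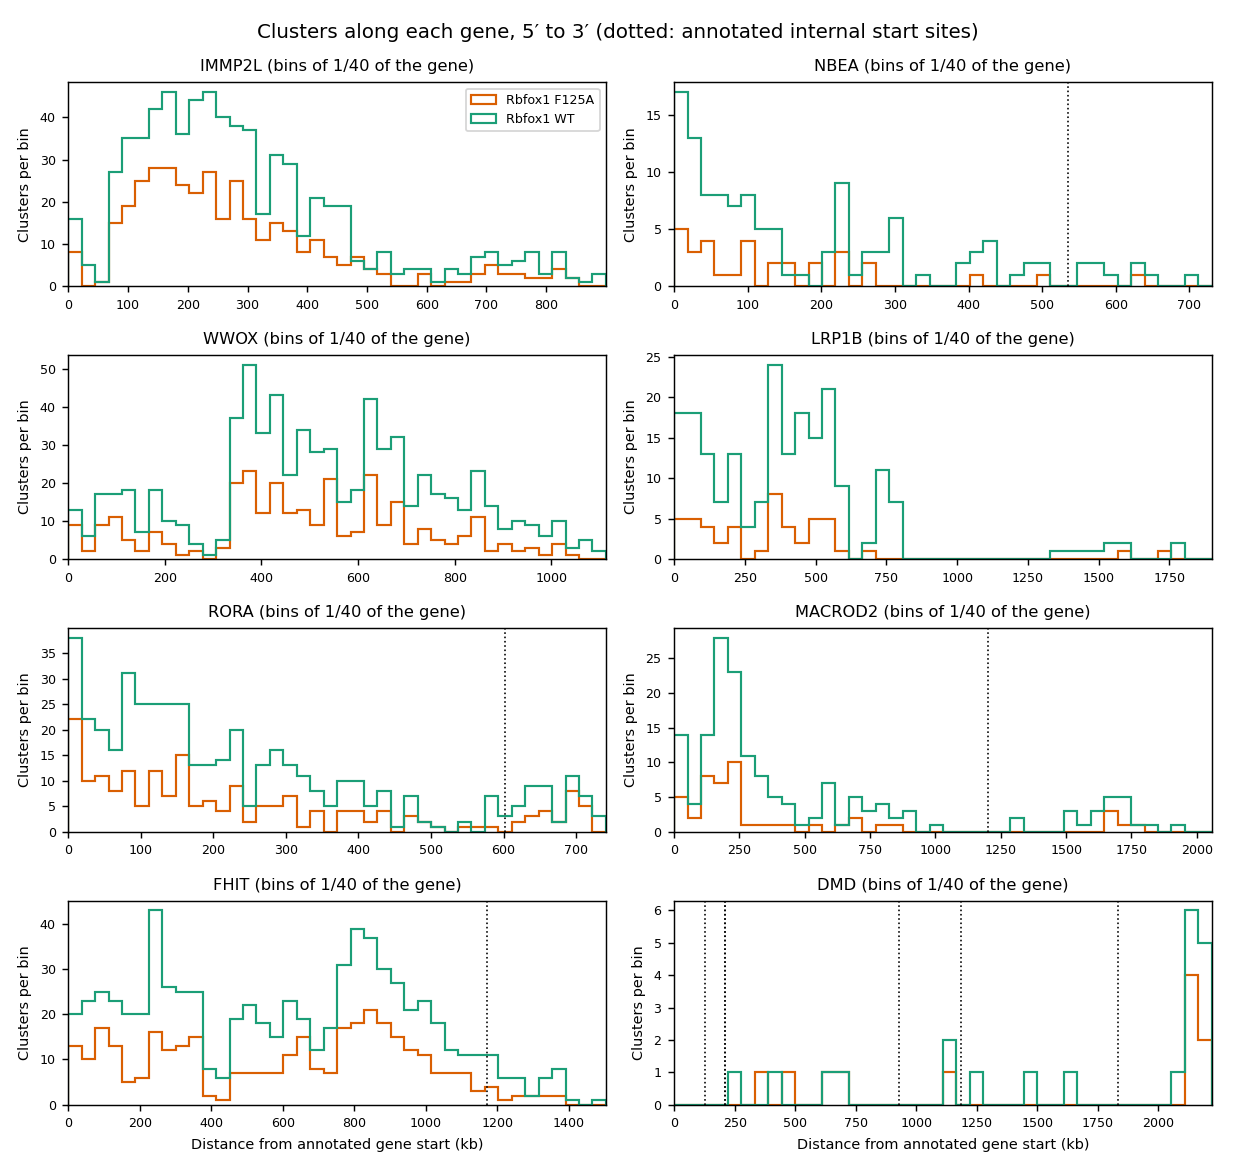
Clusters along each gene from its annotated start (kb), in 40 bins of equal width, for Rbfox1 F125A and Rbfox1 WT, with dotted lines at internal start sites of the RefSeq promoter table. IMMP2L peaks in bins 2 and 3 of 10, FHIT and WWOX inside the gene, RORA, NBEA, LRP1B and MACROD2 toward the 5′ end and DMD at the 3′ end.

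The lean along the gene was compared between the lists by splitting each gene at its midpoint. In WWOX the log2 ratio was -0.15 upstream (exact interval -0.42 to 0.10) and -0.46 downstream (-0.79 to -0.16), and in IMMP2L 0.11 (-0.09 to 0.31) and -0.18 (-0.72 to 0.31). In FHIT it was -0.12 and -0.05, and in RORA -0.29 and -0.14. In the sparse genes few F125A clusters lay downstream. The ratio was -0.77 (-1.46 to -0.20) upstream and -1.62 (-4.36 to -0.25) downstream in NBEA, where 3 F125A clusters lay downstream. It was -1.10 and -0.91 in LRP1B, -0.75 and -0.98 in MACROD2, and 0.96 and -0.21 in DMD. Summed over the 8 genes it was -0.21 upstream (-0.33 to -0.10) and -0.28 downstream (-0.46 to -0.11). The upstream and downstream intervals overlapped in each of the 8 genes and in their sum, so no difference along the gene was detectable with these numbers. Over the 77 other long genes as a sum it was -0.22 upstream (-0.27 to -0.17) and -0.44 downstream (-0.50 to -0.37).

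Clusters were of similar length in all 8 genes. The median was 62 nt for F125A (quartiles 50 and 77) and 59 nt for WT (48 and 75), and by gene it was 57 to 66 nt for F125A and 57 to 61 nt for WT. The longest F125A cluster was 197 nt (WWOX, chr16:78961416-78961612) and the longest WT cluster 255 nt, at the same place (chr16:78961414-78961668). In IMMP2L and LRP1B the longest clusters of the 2 lists also overlapped, and in the other 5 genes they did not. F125A clusters had medians of 61 nt without and 62 nt with a partner, whereas WT clusters without a partner were shorter (57 nt) than those with one (63 nt). In 1084 pairs in which 1 F125A cluster met 1 WT cluster, the F125A cluster was the longer in 465, the WT cluster in 568, and they were equal in 51. The median difference was -1 nt, F125A minus WT. The longer F125A median over all clusters of these genes thus did not appear in the pairs. Clusters with both ends alike in the 2 lists numbered 11 in WWOX, 6 in IMMP2L, 4 each in FHIT and RORA, 1 each in LRP1B, MACROD2 and DMD, and none in NBEA.

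Protein-coding genes inside the host introns had no cluster of their own. LRRN3, a leucine-rich repeat membrane protein gene of 34.3 kb on the plus strand, lies inside IMMP2L, which is read from the minus strand. Clusters of IMMP2L overlapped its bounds 9 times in the F125A list and 29 times in the WT list, or 262 and 845 per Mb. FLRT3, a leucine-rich repeat adhesion protein gene inside MACROD2, was overlapped by no F125A and 2 WT clusters of its host, and MAB21L1 inside NBEA by none. No cluster fell on the microRNA hairpins listed by RefSeq inside LRP1B and DMD.

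Other very long genes known from fragile site work were covered unevenly. Of 18 such genes, 17 had an F125A cluster and all 18 a WT cluster, and 12 reached 20 clusters in the lists combined. Among the best covered were PDE4D, a cyclic AMP phosphodiesterase (199 F125A and 484 WT clusters, log2 ratio -0.32), and GPC6, a glypican (155 and 326, -0.11). Their densities, 128 F125A and 312 WT clusters per Mb in PDE4D and 130 F125A and 274 WT clusters per Mb in GPC6, lay between those of NBEA and FHIT in both lists. The median ratio of the 12 was -0.37, beside -0.48 for the 77 long genes, of which 10 are on this list, and 1 of the 12, DLG2, lay at 2-fold or more toward WT (-1.22). None lay at 2-fold or more toward F125A.

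As a check of the cell label, PAX2, a kidney developmental regulator reported in HEK293 cells, had 8 F125A and 13 WT clusters. Of 9 marker genes of liver, blood and muscle, CPS1 and TTN had 1 cluster in each list, PTPRC had 1 WT cluster, and the others had none. Of the neuronal markers, SYT1 had 15 F125A and 67 WT clusters. Intronic clusters show that a pre-mRNA was recovered, and cell identity was not tested further.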

How the data were processed

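Per the labels' protocols, libraries carried 4-nt molecular identifiers and inserts of 20 to 80 nt. Per the submitters' processing notes, the authors used cutadapt and STAR with hg38. Not given in the sources used here are versions, the cluster caller and its threshold, what the control library was used for, and how libraries were pooled. Per the file headers, each deposited list holds a place, strand, gene name and region type for each cluster. The 0-based starts were raised by 1 for print. Of the per-sample columns 0 were left unused.

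Repeated rows (4851 F125A, 7029 WT) were dropped. Names were matched to RefSeq GRCh38.p14 for bounds and length, and 11796 of the single names matched. None of the members' clusters lay outside its gene or in the stretch of 5433 rows identical in both lists. Overlap needed 1 nt on the same strand. Ratios used genes with at least 20 clusters, and genes of similar length are those of the same of 20 length bins. Shares and ratios carry exact (Clopper-Pearson) and counts exact Poisson 95% intervals (Python 3.11.15, scipy 1.17.1). The code was tested on simulated data.

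Members, lists and comparisons were chosen with earlier results of these data known. Named genes were the 8 members, the 4 best covered of 18 other fragile site genes, the nearest genes in length and in density, and genes inside a member with a cluster of their own, of which there were none. LRRN3, FLRT3, MAB21L1, the label check's markers and DLG2's ratio were named after their values were seen. Some genes that this rule names are not reported here. Clusters given by place are the longest and those of the densest windows, and stretches without clusters and the bins described were chosen from the values. No genome was used, so in place of the planned choice of sequences every member cluster inside a RefSeq promoter window is printed. Alternatives were the added count, centring, merging of clusters closer than 50 nt, the identical stretch, repeats, gene length, covered nt, the minimum of clusters and the overlap rule.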

Additional observations from a re-analysis of the deposited data

How the results depend on the processing

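Of 131 values recomputed under alternatives, 114 stayed within their counting interval or within 1.5 times, and 17 did not. LRP1B, the only member at 2-fold or more, kept its direction under every alternative. Centring on genes of like length moved IMMP2L to 0.49 and, across 0, WWOX to 0.14, RORA to 0.17 and FHIT to 0.33, while LRP1B came to -0.69 and was no longer past 2-fold. Under the other 6 alternatives the ratio of each gene stayed within its main interval, and with covered nt in place of clusters NBEA (-1.16) passed 2-fold toward WT. Genes past 2-fold over all genes numbered 273 toward F125A and 263 toward WT with a minimum of 10 clusters, against 112 and 141, and 36 toward WT with 5 added. Merging clusters closer than 50 nt lowered the density to 356 F125A clusters per Mb in IMMP2L and to 627 (IMMP2L), 567 (WWOX), 551 (RORA) and 425 (FHIT) WT clusters per Mb, which kept the order of the genes. Counting an F125A cluster within 50 nt as a partner raised the WT share of IMMP2L to 53.2%. The share of readable WT clusters with the pentamer was 36.9% without and 6.32% with a partner under 50% G and C, and the hexamer TGCATG was in 20.3% and 2.05%, alternatives chosen after seeing the data. No paired analysis was possible because each group has 1 list, so no replicate could be left out either. Depth is unknown, so a gene with few clusters, such as DMD, may be limited by it.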
